A study of Mus musculus with 16 samples.

Results

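Apoe, Clu, Apod, Abca1, Abcg1, Lrp1 and Lcat encode the lipid carriers, cholesterol exporters, receptor and enzyme by which the brain moves lipid between its cells. The 7 genes were found by symbol in every library, out of 24060 genes listed, and all 7 were among the 12015 genes tested, those whose mean reached 1 RPKM (reads scaled to gene length in kilobases and to 1e+06 reads of the library). They were followed in cortical tissue of 16 mice of 8 to 9 months on a strain labelled C57BL/6; C3, sequenced from the 3' ends of messenger RNA. Knockouts (P301S+ TREM2-/-) carried the P301S mutant tau transgene and no Trem2 allele, heterozygotes (P301S+ TREM2+/-) carried the transgene and 1 allele, P301S+ TREM2+/+ mice carried the transgene and both alleles, and controls (TREM2+/+) carried both alleles and no transgene. Each genotype had 4 mice, 2 of each sex. The labels do not state which promoter drives the transgene, which part of Trem2 was deleted, or a litter, batch or preparation day.

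Lipid travels between brain cells on small particles that astrocytes, and microglia when activated, assemble and secrete. Abca1 and Abcg1 load cholesterol and phospholipid onto the particles, Apoe is their main protein, Lcat esterifies the cholesterol they carry, and Lrp1 is among the receptors that take them up. Oxysterol-activated liver X receptors, paired with retinoid X receptors, switch on Abca1, Abcg1 and Apoe. Trem2 encodes a microglial surface receptor that binds lipids and lipoproteins, ApoE and clusterin among them, and signals through Tyrobp. The title of the series asks how the partial and the complete loss of TREM2 differ in tau disease, so that each genotype with a lost allele is set against the tau mice that kept both.

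The promoters are shown because the exporters and Apoe share regulators and because the results turn mostly on Apoe, Abca1 and Lcat. Sequences are from RefSeq (GRCm38.p6), 250 bases before to 50 bases after the start, on the strand of the gene. 5 of the 7 genes matched the promoter table, and Clu and Abcg1 did not. The windows were searched on both strands for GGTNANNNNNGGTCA, a spaced direct repeat of the kind liver X receptors bind, for CACGTG (an E-box) and for TATAAA, and no pair of these matches overlaps. Capitals mark the matches.
Abca1 promoter, chr4:53159846-53160145, minus strand: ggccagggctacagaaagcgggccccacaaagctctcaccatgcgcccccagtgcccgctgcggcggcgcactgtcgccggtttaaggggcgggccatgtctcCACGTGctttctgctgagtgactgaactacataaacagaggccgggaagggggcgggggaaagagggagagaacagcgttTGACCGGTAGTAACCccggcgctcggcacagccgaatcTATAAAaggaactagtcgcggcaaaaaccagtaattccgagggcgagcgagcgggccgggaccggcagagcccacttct
Apoe promoter, chr7:19699139-19699438, minus strand: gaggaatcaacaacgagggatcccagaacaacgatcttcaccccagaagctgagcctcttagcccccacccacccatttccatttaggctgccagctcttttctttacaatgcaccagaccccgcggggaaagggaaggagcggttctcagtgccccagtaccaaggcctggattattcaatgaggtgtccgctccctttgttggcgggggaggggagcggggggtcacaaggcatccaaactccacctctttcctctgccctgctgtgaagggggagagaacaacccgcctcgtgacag
Lcat promoter, chr8:105943353-105943652, minus strand: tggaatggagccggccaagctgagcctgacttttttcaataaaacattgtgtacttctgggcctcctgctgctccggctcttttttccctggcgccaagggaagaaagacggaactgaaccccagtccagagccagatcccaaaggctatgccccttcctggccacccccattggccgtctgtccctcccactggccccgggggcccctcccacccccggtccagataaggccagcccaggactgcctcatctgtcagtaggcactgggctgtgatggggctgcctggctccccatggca

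The Abca1 window held 1 match of each motif. The direct repeat lay on the reverse strand, from position -67 to -53, the E-box from -147 to -142 and TATAAA from -29 to -24, where position 0 is the first base after the 250 upstream bases. Of 32851 promoter windows of the same length, 68 (0.207%) held the direct repeat, 7.15% the E-box and 13.6% TATAAA. None of the 3 motifs was found in the windows of Apoe, Apod, Lrp1 or Lcat, which says only that these letters are not in those 300 bases.

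Trem2, the targeted gene, set the knockouts apart but did not separate the heterozygotes from mice with both alleles. It was at 1.44, 1.71, 1.46 and 3.75 RPKM in the 4 knockouts, from 5 to 29 reads each, and averaged 12.9 ± 8.98 RPKM in heterozygotes, 27.0 ± 8.69 RPKM in P301S+ TREM2+/+ mice and 12.4 ± 5.53 RPKM in controls (SD, n = 4 each). No knockout reached the lowest library of another genotype. The heterozygotes had 4.495, 8.37, 25.2 and 13.6 RPKM, and replicate 3, at 25.2 RPKM, lay above P301S+ TREM2+/+ replicate 4, at 14.3 RPKM. Heterozygotes differed from P301S+ TREM2+/+ mice by -1.17 on the log2 scale (SE 0.44, limma adjusted p = 0.9996) and from controls by -0.09 (SE 0.44, adjusted p = 0.925). Trem2 was the only gene past limma's adjusted threshold between knockouts and P301S+ TREM2+/+ mice (log2 difference -3.17, SE 0.44, adjusted p = 0.040). That call held without heterozygote replicate 1 or 3, control replicate 3 or 4, or P301S+ TREM2+/+ replicate 4 (adjusted p from 0.0043 to 0.0466), and was lost without any one of the other 11 libraries (adjusted p from 0.0597 to 0.305).

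Depth ran from 2.55 to 14.47 M reads per library (M, 1e+06), with the lowest value in knockout replicate 2. Control replicate 3, a female, lay at 130.8 on the first principal component and every other library between -23.52 and 18.79. The P301S+ TREM2+/+ females lay at 45.03 and 41.3 on the second component, where no other library lay above 12.52. The main differences from P301S+ TREM2+/+ mice are therefore also given without these 3 libraries. That removal leaves only males in the P301S+ TREM2+/+ group, and the sex term is then estimated from the other genotypes. Such differences assume a sex difference alike in all genotypes, which was not tested in that setting. Microglial and astrocyte markers were above 0 in every library (9 of 9 and 8 of 8 genes). Of the blood markers, Hba-a1 and Hbb-bs were listed at 0 in all libraries.

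**Figure D1:**
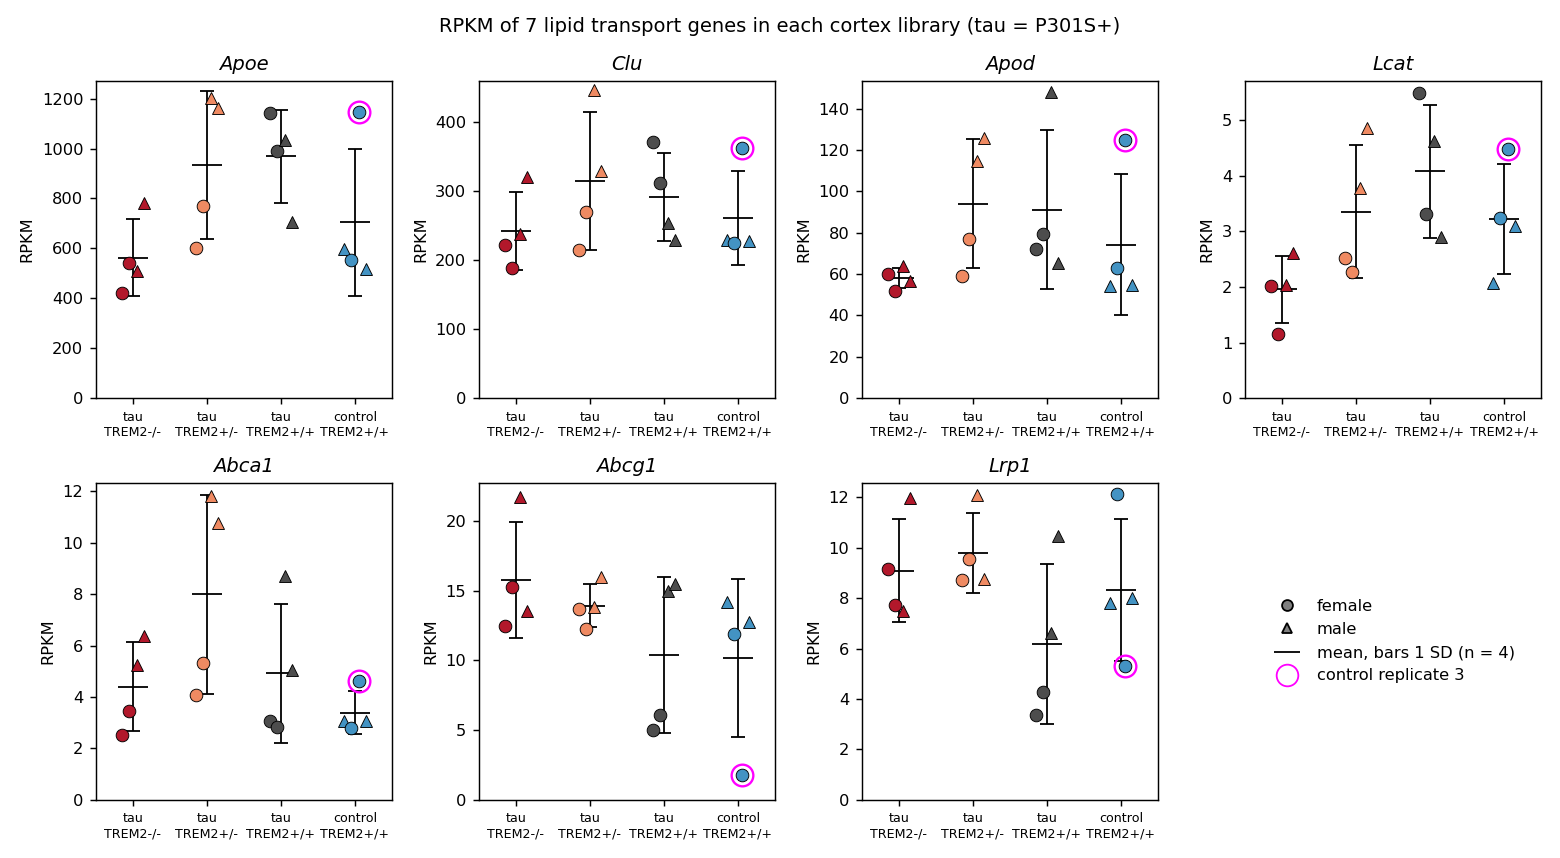
RPKM of each of the 7 genes (vertical axes, from 0) in each library, with the genotypes along the horizontal axis, females as circles, males as triangles, and mean ± 1 SD (n = 4) in black. Control replicate 3, ringed, is the highest control for Apoe (1145 RPKM), Clu (363 RPKM), Apod (125 RPKM), Abca1 (4.64 RPKM) and Lcat (4.49 RPKM), and the lowest for Abcg1 (1.81 RPKM) and Lrp1 (5.33 RPKM).

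Apoe had a lower mean in knockouts than in either of the other tau genotypes. The difference from P301S+ TREM2+/+ mice reached the adjusted threshold only with weights on the libraries, and that from heterozygotes under no setting. Apoe (chromosome 7, 19696109 to 19699188, minus strand, GRCm38) encodes apolipoprotein E, the main lipid carrier of the brain, whose human variants alter the risk of Alzheimer disease. It was the most abundant of the 7 genes per length, with a mean of 792 RPKM over the 16 libraries, at percentile 99.65 of the genes tested. The female knockouts had 420.3 and 541 RPKM and the male knockouts 509 and 781 RPKM. In heterozygotes the females had 602 and 769 RPKM and the males 1204 and 1161 RPKM. In P301S+ TREM2+/+ mice the females had 1142 and 991 RPKM and the males 1034 and 706 RPKM. Knockout replicate 4, at 781 RPKM, was the one knockout above the lowest P301S+ TREM2+/+ library, so that these genotypes overlapped. In controls the females had 552 and 1145 RPKM and the males 599 and 518 RPKM, and the value of 1145 RPKM is that of control replicate 3.

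Apoe averaged 563 ± 154 RPKM in knockouts, 934 ± 296 RPKM in heterozygotes, 968 ± 186 RPKM in P301S+ TREM2+/+ mice and 704 ± 296 RPKM in controls (SD, n = 4 each). Without replicate 3 the controls averaged 556 ± 40.7 RPKM (SD, n = 3), close to the knockouts. On the log2(RPKM + 1) scale knockouts differed from P301S+ TREM2+/+ mice by -0.80 (SE 0.31, 95% interval -1.45 to -0.14, limma adjusted p = 0.428) and from heterozygotes by -0.71 (SE 0.31, 95% interval -1.36 to -0.05, adjusted p = 0.9999). Heterozygotes differed from P301S+ TREM2+/+ mice by -0.09 (95% interval -0.74 to 0.57), an interval that includes 0 and stops just short of the value seen in knockouts, and by 0.30 (SE 0.24) without control replicate 3 and both P301S+ TREM2+/+ females. The difference of -0.09 joins sexes that went opposite ways. Heterozygote females averaged 685.5 RPKM against 1066 RPKM in P301S+ TREM2+/+ females, and the males 1183 RPKM against 870 RPKM (n = 2 each). The order of the Apoe means from high to low was P301S+ TREM2+/+, heterozygote, control and knockout. With all libraries, neighbours in that order did not differ beyond their spread. Without control replicate 3, every heterozygote lay above every control in Apoe, as held for 4.61% of all genes tested.

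Array weights, which estimate how far each library departs from its group, gave control replicate 3 a weight of 0.0448 and the other libraries 0.599 to 4.57. With them Apoe fell in knockouts against P301S+ TREM2+/+ mice (log2 difference -0.92, SE 0.22, limma adjusted p = 0.040), among 690 genes called, 5.74% of those tested. Under every other setting Apoe stayed short of the threshold (adjusted p from 0.0768 to 0.883), except array weights with TMM scaling, which rescales libraries by a trimmed mean of gene ratios (adjusted p = 0.043). The lowest of these, 0.0768, came without control replicate 3. Without that library and both P301S+ TREM2+/+ females the difference was -0.41 (SE 0.24).

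P301S+ TREM2+/+ mice stood above controls in Apoe by 0.52 (SE 0.31, limma adjusted p = 0.449). All 4 P301S+ TREM2+/+ libraries lay above the 3 controls left once replicate 3 was set aside, and the difference was 0.82 (SE 0.24, adjusted p = 0.134). Of all genes tested, 7.27% were non-overlapping and higher in that comparison. Without both P301S+ TREM2+/+ females as well the difference was 0.47 (SE 0.25). Against controls, knockouts differed in Apoe by -0.28 (SE 0.31) with all libraries and by 0.02 (SE 0.24) without control replicate 3.

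Libraries with high Apoe tended to hold high levels of astrocyte markers. Apart from control replicate 3, they tended to hold high levels of microglial markers as well. The 9 microglial markers (Csf1r, P2ry12, Tmem119, Cx3cr1, Aif1, C1qb, C1qc, Tyrobp and Ctss) summed to 279 to 619 RPKM in knockouts, 258 to 1096 RPKM in heterozygotes, 417 to 732 RPKM in P301S+ TREM2+/+ mice and 277 to 441 RPKM in controls. In knockouts against P301S+ TREM2+/+ mice 8 of the 9 were lower, with a median log2 difference of -0.46 and 0 called. The 8 astrocyte markers summed to 1557 to 2185 RPKM in knockouts, 1676 to 2230 RPKM in heterozygotes, 1659 to 2410 RPKM in P301S+ TREM2+/+ mice and 1629 to 2320 RPKM in controls, and 5 of 8 were lower in knockouts than in P301S+ TREM2+/+ mice. Choroid plexus markers are from a tissue that a cortical dissection can hold by accident and that is rich in Clu. They summed to 121 to 988 RPKM in knockouts and 214 to 1773 RPKM in P301S+ TREM2+/+ mice, with 4 of 5 lower in knockouts. The sums were 68.2 to 593 RPKM in heterozygotes and 110 to 528 RPKM in controls. All 5 were lower in heterozygotes than in P301S+ TREM2+/+ mice, while the Clu mean was 315 RPKM in heterozygotes against 292 RPKM. The part of these cell types in the differences of Apoe and the other genes was not tested. In whole cortex, fewer cells of a type and less RNA per cell cannot be told apart.

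**Figure D2:**
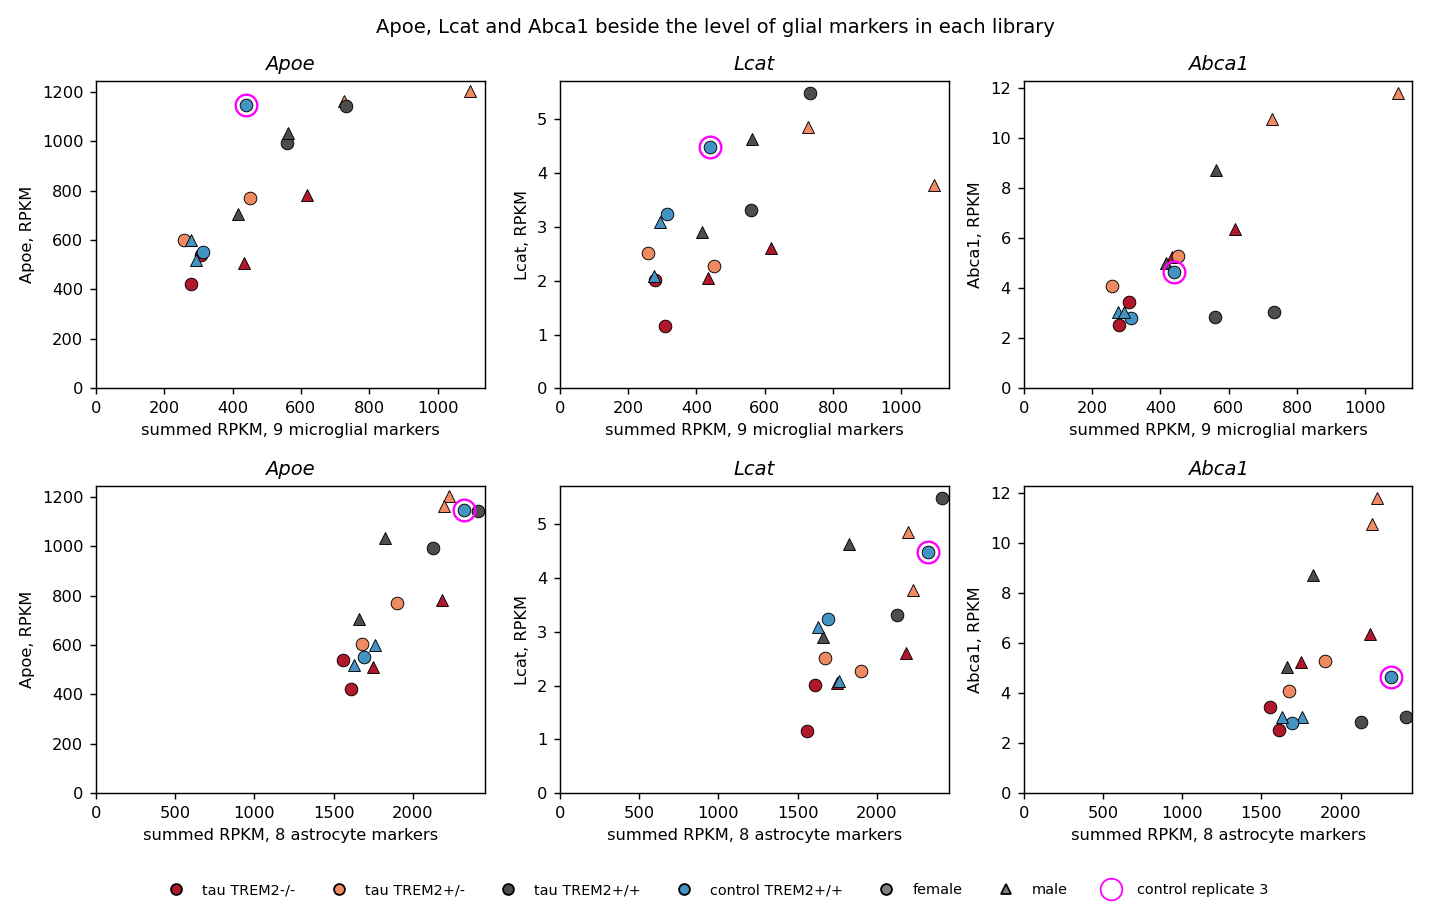
RPKM of Apoe, Lcat and Abca1 (vertical axes) against the summed RPKM of 9 microglial markers (upper row) and 8 astrocyte markers (lower row) in each library, coloured by genotype, with females as circles and males as triangles. Heterozygote replicate 3 has the highest microglial sum (1096 RPKM) and the highest Apoe (1204 RPKM) and Abca1 (11.8 RPKM), while the P301S+ TREM2+/+ females, at microglial sums of 732 and 561 RPKM, have Abca1 of 3.06 and 2.85 RPKM.

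Clu (chromosome 14, 65968483 to 65981547, plus strand) encodes clusterin, or apolipoprotein J, a secreted chaperone that also rides on lipid particles. It was at 221 and 189 RPKM in female and 237 and 321 RPKM in male knockouts, at 214 and 269 RPKM in female and 446 and 329 RPKM in male heterozygotes, at 372 and 312 RPKM in female and 254 and 228 RPKM in male P301S+ TREM2+/+ mice, and at 224 and 363 RPKM in female and 229 and 227 RPKM in male controls. All pairs of genotypes overlapped. The means were 242 ± 56.4 RPKM in knockouts, 315 ± 99.6 RPKM in heterozygotes, 292 ± 63.8 RPKM in P301S+ TREM2+/+ mice and 261 ± 68.0 RPKM in controls (SD, n = 4 each). Knockouts differed from P301S+ TREM2+/+ mice by -0.27 (SE 0.26, limma adjusted p = 0.755), and the difference was 0.19 without control replicate 3 and both P301S+ TREM2+/+ females. 3 controls lay within 224 to 229 RPKM, and only control replicate 3 stood higher.

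The sexes of the tau genotypes were ordered differently in Clu, and the sex means of Apoe and Lcat had the same orders. In Clu the P301S+ TREM2+/+ females averaged 342 RPKM and the males 241 RPKM. Knockout females averaged 205 RPKM and males 279 RPKM, and heterozygote females 242 RPKM and males 388 RPKM (n = 2 each). The effect of losing 1 allele on Clu, in females less that in males, was -1.17 on the log2 scale (SE 0.40, limma adjusted p = 0.668 for the interaction), and the effect of losing both alleles differed by -0.93 (SE 0.40, adjusted p = 0.654). Of all genes, 6.48% had an unadjusted p under 0.05 in the first of these interactions and 7.24% in the second. The interaction of the loss of 1 allele passed without control replicate 2 or 3 (limma adjusted p = 0.0432 and 0.0429) and with array weights and TMM scaling (adjusted p = 0.0490), as did 3.16%, 3.19% and 3.57% of all genes. Control libraries enter that interaction only through the spread pooled over all groups. Leaving out control replicate 2 or 3 left 1 control female, and the Clu values of the tau mice stayed the same. The passes without either control therefore reflect a changed pooled spread and are not further evidence of a sex difference in Clu. In the interaction of the loss of 1 allele, Trem2 itself had the same sign as Clu (-2.06, SE 0.62, limma adjusted p = 0.649). So had Apoe (-1.11, SE 0.51, adjusted p = 0.764) and Lcat (-0.82, SE 0.41, adjusted p = 0.764), and also Apod and Abca1. Abcg1 and Lrp1 had the opposite sign.

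Apod (chromosome 16, 31296192 to 31314808, minus strand) encodes apolipoprotein D, a lipocalin of oligodendrocytes and fibroblasts with antioxidant function that is not related in structure to other apolipoproteins. The 4 knockouts lay close together, at 60.03, 51.97, 63.8 and 56.8 RPKM. The P301S+ TREM2+/+ mice had 72.0, 79.3, 148 and 65.3 RPKM. Thus every knockout was below every P301S+ TREM2+/+ library, as held for 4.76% of all genes tested. The nearest pair was 63.8 RPKM in a knockout and 65.3 RPKM in a P301S+ TREM2+/+ mouse. The heterozygotes had 59.0, 76.9, 115 and 126 RPKM, and the controls 54.2, 63.1, 125 and 54.7 RPKM. Both male heterozygotes, male P301S+ TREM2+/+ replicate 3 and control replicate 3 were the 4 libraries above 100 RPKM.

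Apod averaged 58.2 ± 4.997 RPKM in knockouts, 94.1 ± 31.4 RPKM in heterozygotes, 91.1 ± 38.3 RPKM in P301S+ TREM2+/+ mice and 74.3 ± 34.1 RPKM in controls (SD, n = 4 each), and 57.3 ± 5.01 RPKM in the controls without replicate 3 (SD, n = 3). The log2 difference of knockouts was -0.56 from P301S+ TREM2+/+ mice (SE 0.31, limma adjusted p = 0.556) and -0.63 from heterozygotes (SE 0.31, adjusted p = 0.9999). The first of these was -0.60 (SE 0.31) without control replicate 3 and both P301S+ TREM2+/+ females, and -0.31 without P301S+ TREM2+/+ replicate 3 alone. With control replicate 3 left out, the P301S+ TREM2+/+ mice did not overlap with controls in Apod and stood 0.64 above them (SE 0.25, adjusted p = 0.174), against 0.31 (SE 0.31) with all libraries. Without that control, 7.27% of all genes tested were likewise higher with no overlap. Markers of oligodendrocytes summed to 749.5 to 1108 RPKM in knockouts, 728 to 888 RPKM in heterozygotes and 627 to 874 RPKM in P301S+ TREM2+/+ mice. Markers of meninges and fibroblasts summed to 19.3 to 56.9 RPKM in knockouts, 35.2 to 70.8 RPKM in heterozygotes and 21.3 to 66.5 RPKM in P301S+ TREM2+/+ mice. Of 5 such markers above the filter, all 5 were lower in knockouts than in heterozygotes, with a median log2 difference of -0.61, and 4 were lower than in P301S+ TREM2+/+ mice, with a median of -0.40. Their part in the Apod differences was not tested.

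Lcat gave the smallest p of the 7 genes for the loss of both alleles, on few reads. Lcat (chromosome 8, 105939551 to 105943382, minus strand, with the antisense gene Gm16156 on the other strand) encodes lecithin-cholesterol acyltransferase, which esterifies cholesterol on lipoproteins and uses ApoE as a cofactor in the brain. Its 4 knockout values were 2.02, 1.15, 2.04 and 2.61 RPKM, from 15, 4, 25 and 24 reads. The P301S+ TREM2+/+ mice had 5.49, 3.31, 4.63 and 2.90 RPKM, from 52, 33, 32 and 50 reads. All 4 knockouts were below all 4 P301S+ TREM2+/+ mice, and the same held for Apod alone among the other 6 genes. Of all genes tested, 4.76% were non-overlapping and lower in knockouts.

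The heterozygotes had Lcat at 2.52, 2.27, 3.78 and 4.86 RPKM and the controls at 2.08, 3.25, 4.49 and 3.09 RPKM, both overlapping with the other genotypes. Lcat averaged 1.96 ± 0.603 RPKM in knockouts, 3.36 ± 1.199 RPKM in heterozygotes, 4.08 ± 1.196 RPKM in P301S+ TREM2+/+ mice and 3.23 ± 0.988 RPKM in controls (SD, n = 4 each). Knockouts differed from P301S+ TREM2+/+ mice by -0.78 (SE 0.24, 95% interval -1.30 to -0.26, limma adjusted p = 0.426), from heterozygotes by -0.54 (SE 0.24, adjusted p = 0.9999) and from controls by -0.51 (SE 0.24, adjusted p = 0.450). Without control replicate 3 and both P301S+ TREM2+/+ females the first of these differences was -0.53 (SE 0.26, 95% interval -1.09 to 0.035), an interval that includes 0. The pseudocount of 1 understates the change of so low a gene, and with 0.1 in its place the difference from P301S+ TREM2+/+ mice was -1.03 (SE 0.32, adjusted p = 0.440). The files give no strand for the counting, so that reads of Gm16156 cannot be told apart from those of Lcat.

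Abca1 was highest in the male heterozygotes, and among the 7 genes it had the largest difference from controls, that of heterozygotes, which passed the adjusted threshold only with weights on the libraries. Abca1 (chromosome 4, 53030787 to 53159895, minus strand) encodes the membrane pump that starts lipoprotein particles by handing cholesterol and phospholipid to apolipoproteins. Heterozygote females had 4.08 and 5.31 RPKM and males 11.8 and 10.8 RPKM, so that the females lay within the range of the P301S+ TREM2+/+ mice. Knockout females had 2.53 and 3.44 RPKM and males 5.24 and 6.38 RPKM. P301S+ TREM2+/+ females had 3.06 and 2.85 RPKM and males 8.72 and 5.03 RPKM, and in each of the 3 tau genotypes both females lay below both males. Control females had 2.80 and 4.64 RPKM and males 3.06 and 3.07 RPKM, without that order. Abca1 was alone among the 7 genes in being lower in females of all 3 tau genotypes without overlap, as were 1.96% of all genes.

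Abca1 averaged 4.40 ± 1.74 RPKM in knockouts, 7.99 ± 3.86 RPKM in heterozygotes, 4.91 ± 2.72 RPKM in P301S+ TREM2+/+ mice and 3.39 ± 0.841 RPKM in controls (SD, n = 4 each). Heterozygotes stood above controls by 0.94 (SE 0.25, 95% interval 0.40 to 1.49, limma adjusted p = 0.482), above P301S+ TREM2+/+ mice by 0.60 (SE 0.25, adjusted p = 0.9996), and knockouts differed from heterozygotes by -0.69 (SE 0.25, adjusted p = 0.9999). All heterozygotes lay above the 3 controls other than replicate 3 in Abca1 and in Apoe, as did 4.61% of all genes, and without replicate 3 the Abca1 difference was 1.201 (SE 0.21, adjusted p = 0.141). With array weights Abca1 rose in heterozygotes against controls (1.12, SE 0.17, limma adjusted p = 0.016), among 131 genes called, 1.09% of those tested. Knockouts and P301S+ TREM2+/+ mice differed in Abca1 by -0.09 (95% interval -0.63 to 0.46). Without control replicate 3 and both P301S+ TREM2+/+ females, Abca1 differed from P301S+ TREM2+/+ mice by -0.19 in knockouts and 0.49 in heterozygotes (SE 0.26 each). The meningeal and fibroblast markers summed to 62.1 and 70.8 RPKM in the male heterozygotes and to 38.8 and 35.2 RPKM in the female ones, against 13.9 to 58.1 RPKM in controls. All 5 above the filter were higher in heterozygotes than in P301S+ TREM2+/+ mice (median 0.24) and than in controls (median 0.39), with 0 called, and their part in the Abca1 differences was not tested.

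The fit's sex term for Abca1 was -0.67, females less males (SE 0.18, limma adjusted p = 0.307). Of all genes, 14.1% had an unadjusted p under 0.05 for this term and 0.0416% passed the adjusted threshold. The P301S effect on Abca1, in females less that in males, was -1.14 (SE 0.38, adjusted p = 0.344 for the interaction), where 13.5% of all genes had an unadjusted p under 0.05. In the 2 sexes the means were 2.95 RPKM in P301S+ TREM2+/+ females against 3.72 RPKM in control females, and 6.87 RPKM in P301S+ TREM2+/+ males against 3.07 RPKM in control males (n = 2 each). Without control replicate 2 the control females are represented by replicate 3 alone. Abca1 (-1.43), Abcg1 (1.05) and Apod (-1.56) then passed the interaction (limma adjusted p from 0.0074 to 0.0209), along with 41.7% of all genes.

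Abcg1 and Lrp1 shared a pattern that ran against that of Apoe, with the lowest values in 3 females. Abcg1 (chromosome 17, 31057675 to 31117988, plus strand, with the ribosomal RNA gene Gm25447 on the same strand) encodes the exporter that adds cholesterol to particles already formed. It was at 4.97 and 6.08 RPKM in the P301S+ TREM2+/+ females and at 1.81 RPKM in control replicate 3. The other 13 libraries lay between 11.9 and 21.7 RPKM. The means were 15.7 ± 4.17 RPKM in knockouts, 13.9 ± 1.54 RPKM in heterozygotes, 10.4 ± 5.61 RPKM in P301S+ TREM2+/+ mice and 10.2 ± 5.65 RPKM in controls (SD, n = 4 each), and 13.0 ± 1.16 RPKM in the controls without replicate 3 (SD, n = 3).

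Knockouts differed from P301S+ TREM2+/+ mice in Abcg1 by 0.67 (SE 0.38, limma adjusted p = 0.559) and from controls by 0.81 (SE 0.38, adjusted p = 0.450). Without control replicate 3 and the P301S+ TREM2+/+ females these differences were 0.13 (SE 0.17) and 0.27 (SE 0.15). The P301S effect on Abcg1 was 0.14 (SE 0.38) with all libraries and -0.35 (SE 0.24) without control replicate 3. In the sex term Abcg1 stood at -0.77, females less males (SE 0.27, adjusted p = 0.309).

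Lrp1 (chromosome 10, 127538161 to 127621148, minus strand, with the antisense gene Gm16217 on the other strand) encodes a large endocytic receptor for ApoE-bearing particles that also takes up tau. The P301S+ TREM2+/+ females had 3.37 and 4.28 RPKM and the males 6.61 and 10.5 RPKM. The knockouts had 9.16, 7.74, 7.51 and 11.99 RPKM, the heterozygotes 8.72, 9.57, 12.1 and 8.78 RPKM, and the controls 7.83, 12.1, 5.33 and 8.03 RPKM. All pairs of genotypes overlapped, and P301S+ TREM2+/+ replicate 4 lay within the range of each other genotype. Reads of Gm16217 cannot be told apart from those of Lrp1. The means were 9.10 ± 2.06 RPKM in knockouts, 9.79 ± 1.59 RPKM in heterozygotes, 6.19 ± 3.17 RPKM in P301S+ TREM2+/+ mice and 8.33 ± 2.82 RPKM in controls (SD, n = 4 each).

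Lrp1 stood 0.57 higher in knockouts than in P301S+ TREM2+/+ mice (SE 0.26, limma adjusted p = 0.493) and 0.68 higher in heterozygotes (SE 0.26, adjusted p = 0.9996). Without control replicate 3 and the P301S+ TREM2+/+ females the differences in Lrp1 were 0.08 (SE 0.25) and 0.19 (SE 0.25). Against controls, P301S+ TREM2+/+ mice differed in Lrp1 by -0.43 (SE 0.26, adjusted p = 0.462), and by -0.11 (SE 0.25) without those libraries.

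**Figure D3:**
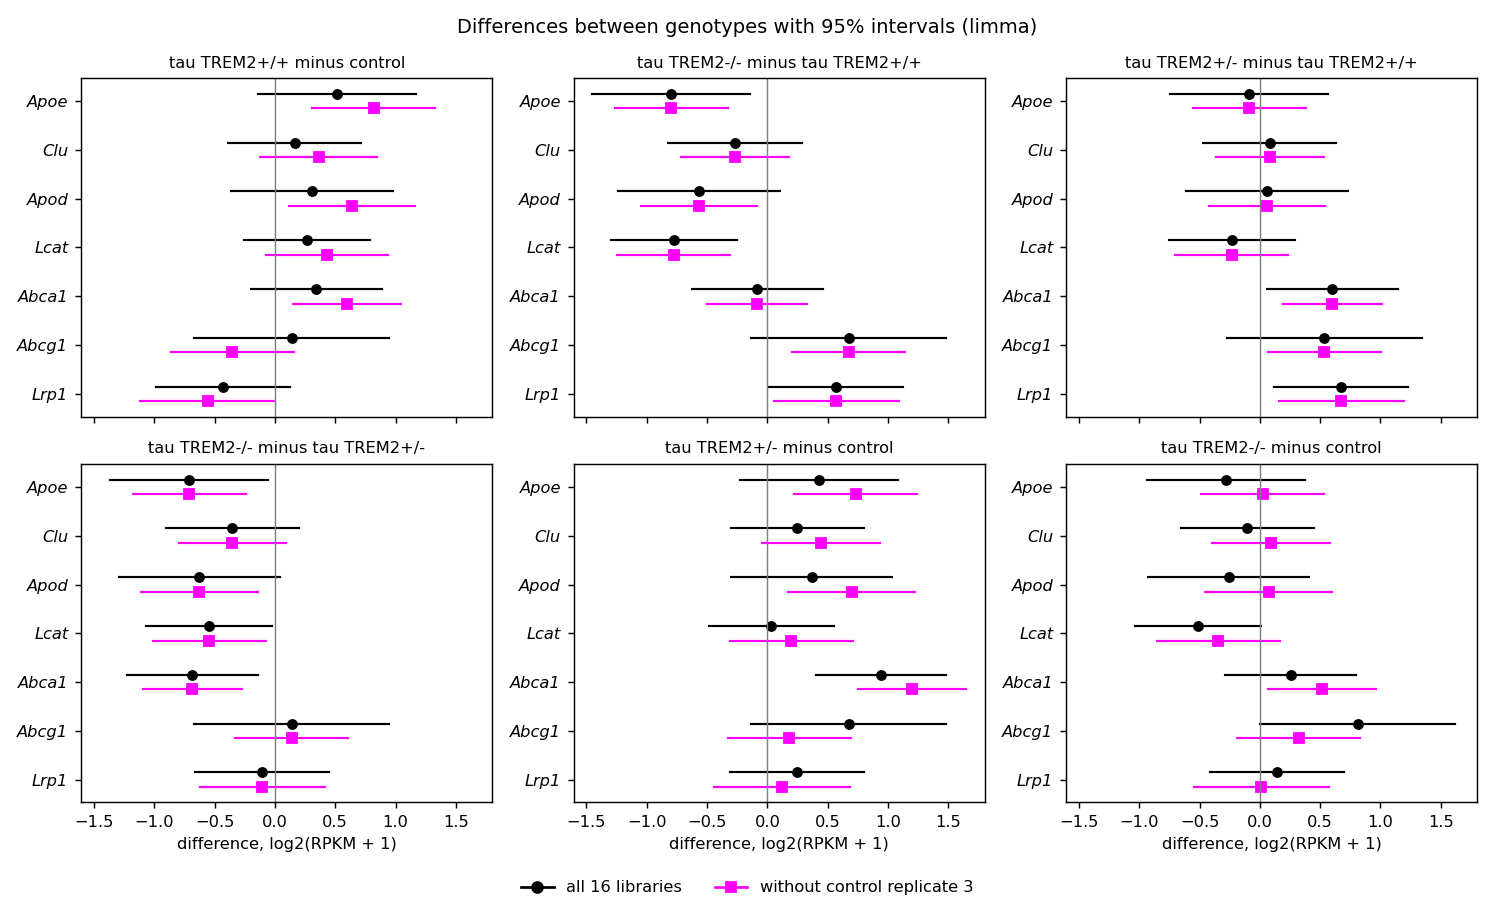
Differences between genotypes in log2(RPKM + 1) (horizontal axes) for the 7 genes, with 95% intervals from limma, over all 16 libraries (black circles) and without control replicate 3 (magenta squares). For knockouts against P301S+ TREM2+/+ mice, Apoe (-0.80) and Lcat (-0.78) lie below 0 and Lrp1 (0.57) above 0 with intervals that do not reach 0, while the adjusted p-values of all 7 genes are above the threshold of 0.05.

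Read over the 7 genes, none passed limma's adjusted threshold in any of the 6 comparisons between genotypes, by which 0.0% of all genes were called in 5 comparisons and 0.00832% for the loss of both alleles. For knockouts against P301S+ TREM2+/+ mice, 2 were higher and 5 lower, with a median difference of -0.27 against -0.02 over all genes tested. 3 of the 7 (Lcat, Apoe and Lrp1) had an unadjusted p under 0.05 there, as had 9.9% of all genes. That count was 1 without knockout replicate 1 (5.72% of all genes) or P301S+ TREM2+/+ replicate 1 (5.41%), and 5 without control replicate 3 (23.6%). It was 0 without control replicate 3 and both P301S+ TREM2+/+ females (5.79%).

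For knockouts against heterozygotes, 1 was higher and 6 lower, with a median of -0.54 against -0.03 over all genes, and 3 (Abca1, Apoe and Lcat) had an unadjusted p under 0.05, as had 3.42% of all genes. The count was 0 without knockout replicate 1 (2.04% of all genes) or heterozygote replicate 3 (2.73%), and 1 without knockout replicate 2 (2.36%) or 3 (2.35%) or heterozygote replicate 4 (1.57%). For heterozygotes against P301S+ TREM2+/+ mice, 5 were higher and 2 lower, and 2 (Lrp1 and Abca1) had an unadjusted p under 0.05, as had 2.7% of all genes. It was 0 without heterozygote replicate 3 (2.24%) or P301S+ TREM2+/+ replicate 1 (1.53%) or 2 (1.41%), and 1 without heterozygote replicate 2 (1.23%) or 4 (2.9%) or P301S+ TREM2+/+ replicate 4 (4.83%).

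For P301S+ TREM2+/+ mice against controls, 6 of the 7 were higher, with a median of 0.27 against 0.06 over all genes, and none had an unadjusted p under 0.05 with all libraries, which 13.8% of all genes had. The count depended on single libraries: 3 of the 7 had such a p without control replicate 3 (21.2% of all genes) and 4 with array weights (26.7%). It was 1 without P301S+ TREM2+/+ replicate 4 (18.0%) and 1 without control replicate 3 and both P301S+ TREM2+/+ females (6.41%). For heterozygotes against controls all 7 were higher, as were 59.9% of all genes, and 1 (Abca1) had an unadjusted p under 0.05, as had 9.6% of all genes. It was 3 without control replicate 2 (17.1%) or 3 (8.72%). For knockouts against controls 3 were higher and 4 lower, with a median of -0.10 against 0.08 over all genes, of which 58.1% were higher. There 1 (Abcg1) had an unadjusted p under 0.05, as had 1167 of all 12015 genes. Most single removals lost it. The count was 0 without P301S+ TREM2+/+ replicate 2 or 3, heterozygote replicate 1, 2 or 3, knockout replicate 1, 2 or 3, or control replicate 4. Over all genes 507 to 1724 had such a p in those fits. It was 2 without knockout replicate 4 (1380 genes) or control replicate 1 (1883 genes), and 0 with limma-voom (812 genes). Limma-voom, which models the reads recovered from the RPKM values, called none of the 7 in any of the 6. The comparisons share groups, so their counts are not independent of each other.

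Across libraries the 7 genes fell into carriers with Lcat on one side and Abcg1 with Lrp1 on the other. Over the 15 libraries without control replicate 3, the correlation of log2 levels with Apoe was 0.84 for Clu, 0.78 for Apod, 0.77 for Lcat and 0.63 for Abca1, but -0.39 for Abcg1 and -0.29 for Lrp1. Abcg1 and Lrp1 correlated at 0.68 with each other. Of these 15 libraries, both P301S+ TREM2+/+ females held the lowest Abcg1 (4.97 and 6.08 RPKM) and Lrp1 (3.37 and 4.28 RPKM). How far this correlation rests on those females was not tested. Abca1 stood between the sides, at 0.77 with Apod and 0.43 with Abcg1. These correlations are descriptions over libraries that share genotype, sex and depth.

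The genes most like Apoe, of all 12015, were Axl, a receptor of phagocytes for dying cells (r = 0.97, and 0.89 with control replicate 3), Ctsd, the lysosomal protease cathepsin D (0.96 and 0.93), and Ntsr2, a neurotensin receptor of astrocytes (0.95 and 0.92). Those most like Clu were Myo1f, a myosin of leukocytes (0.96 and 0.91), C1qc, a chain of complement C1q (0.96 and 0.33), and Mt1, a metallothionein (0.95 and 0.51). For Abca1 they were Notch2 (0.94 and 0.92), Unc93b1, which escorts Toll-like receptors (0.93 and 0.63), and Tead1 (0.92 and 0.88). For Apod they were the collagen receptor Ddr2 (0.93 and 0.90), 0610040J01Rik (0.92 and 0.76) and the endothelin receptor Ednrb (0.91 and 0.92).

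For Abcg1 the most like genes were Psph, of serine synthesis (0.97 and 0.98), Hnrnpab (0.97 and 0.97) and Gpm6b (0.97 and 0.99). For Lrp1 they were Ryk (0.92 and 0.58), Gas6, a ligand of Axl (0.90 and 0.81), and St7 (0.90 and 0.81). For Lcat they were the corepressor Ncor1 (0.87 and 0.86), Agtrap (0.87 and 0.83) and Hip1 (0.85 and 0.82). Each pair of values is Pearson's r over 15 and over 16 libraries, and the low second values of C1qc, Mt1, Ryk and Unc93b1 come from adding control replicate 3. By Spearman's rank correlation over the 15 libraries, the 3 most like genes included 2 of those named for Lcat, 1 each for Apoe, Clu and Abca1, and none for Apod, Abcg1 or Lrp1. Spearman's rho of the genes named for Abcg1 was 0.85 for Psph, 0.81 for Hnrnpab and 0.85 for Gpm6b.

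Of 80 further genes of lipid transport, 54 passed the filter on low levels, and limma called none of them in any comparison, while limma-voom called 0 of all genes in both comparisons described here. For knockouts against P301S+ TREM2+/+ mice 22 were higher and 32 lower, with a median of -0.08 against -0.02 over all genes. Of the 54, 2 had an unadjusted p under 0.05, a smaller share than the 9.9% of all genes, and with single libraries left out the count ran from 0 to 9, with 9 without control replicate 3 (23.6% of all genes). Both are in the list of sterol sensors and regulators. Srebf1, the transcription factor of fatty acid synthesis and a liver X receptor target, was at 9.13 ± 1.92 RPKM in knockouts and 5.71 ± 4.03 RPKM in P301S+ TREM2+/+ mice (log2 difference 0.80, SE 0.36, limma adjusted p = 0.493). Cyp27a1, which makes an oxysterol, was at 2.43 ± 0.385 RPKM in knockouts and 1.52 ± 1.12 RPKM in P301S+ TREM2+/+ mice (0.54, SE 0.25, adjusted p = 0.494).

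The other apolipoproteins above the filter were 3 of 14. Apoc1, a small apolipoprotein of macrophages and glia, was at 2.55 ± 2.31 RPKM in knockouts and 5.54 ± 3.51 RPKM in P301S+ TREM2+/+ mice (-0.99, SE 0.53, limma adjusted p = 0.546). Apoo, which despite its name is best known as a mitochondrial membrane protein, was at 2.37 ± 0.274 RPKM in knockouts and 4.36 ± 1.503 RPKM in P301S+ TREM2+/+ mice (-0.62, SE 0.33). Among 13 lipoprotein receptors and their regulators, 4 were higher and 9 lower in knockouts. The smallest p there were those of Mylip, which marks lipoprotein receptors for degradation (0.55, SE 0.34), and Lrp1b, a relative of Lrp1 (-0.41, SE 0.24).

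Among 8 other lipid exporters, 3 were higher and 5 lower in knockouts, with -0.27 for Abcg2 (SE 0.17), an efflux pump of brain capillaries, and 0.24 for Abca2 (SE 0.16), a transporter of oligodendrocytes. Markers of endothelium summed to 41.57 to 46.82 RPKM in knockouts and 51.85 to 59.97 RPKM in P301S+ TREM2+/+ mice. Of these markers 4 were lower in knockouts and 1 higher, with 0 called. Their part in the Abcg2 difference was not tested. Among 5 lipoprotein enzymes, 2 were higher and 3 lower, with -0.49 for the lipoprotein lipase gene Lpl (SE 0.36) and -0.28 for Soat1 (SE 0.23), which esterifies cholesterol inside cells. Of 14 sterol sensors 8 were higher and 6 lower, and of 11 intracellular lipid carriers 4 were higher and 7 lower, among them the lipid droplet coat gene Plin3 (-0.29, SE 0.20) and the oxysterol-binding protein gene Osbp (0.26, SE 0.20).

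For P301S+ TREM2+/+ mice against controls 40 of the 54 were higher and 14 lower, with a median of 0.13 against 0.06 over all genes, of which 57.1% were higher. With TMM scaling 33 were higher and 21 lower. Of the 54, 11 had an unadjusted p under 0.05, as had 13.8% of all genes. The count was 4 without P301S+ TREM2+/+ replicate 1 (7.63% of all genes), 7 without replicate 2 (7.17%) and 17 without replicate 4 (18.0%). The exporter Abca8a reached 17.8 ± 6.56 RPKM in P301S+ TREM2+/+ mice, against 7.86 ± 4.78 RPKM in controls (1.29, SE 0.44, limma adjusted p = 0.269), and Abca2 at 27.1 ± 3.87 RPKM in P301S+ TREM2+/+ mice and 38.2 ± 10.2 RPKM in controls (-0.46, SE 0.16, adjusted p = 0.270). Rxrg, a retinoid X receptor, reached 27.9 ± 2.81 RPKM in P301S+ TREM2+/+ mice, against 12.9 ± 8.47 RPKM in controls (1.29, SE 0.51, limma adjusted p = 0.315). Markers of striatum summed to 665 to 1347 RPKM in P301S+ TREM2+/+ mice and 215 to 913 RPKM in controls. Of those above the filter 3 were higher and 1 lower, with a median of 0.96 and 0 called. Their part in the Rxrg difference was not tested. Lpl reached 28.2 ± 7.56 RPKM in P301S+ TREM2+/+ mice, against 15.2 ± 7.25 RPKM in controls (0.98, SE 0.36, adjusted p = 0.289). The other named values were 1.04 for Apoo, 0.37 for Apoc1, 0.60 for the sorting receptor gene Sorl1, 0.33 for its relative Sort1 and 0.35 for Soat1.

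Several of these values moved when control replicate 3 was left out. Without it the difference for Scap, the escort of the sterol-regulated factors, was 0.31 in place of 0.91, for Scp2, a sterol carrier, 0.34 in place of 0.88, for the fatty acid carrier gene Fabp5 0.32 in place of 0.70, for Sorl1 0.25 in place of 0.60, for Sort1 0.20 in place of 0.33, for Abca8a 0.75 in place of 1.29, for Lpl 0.59 in place of 0.98 and for Apoo 0.67 in place of 1.04. The value for Soat1 was 0.53 in place of 0.35. Rxrg then stood at 0.995 (adjusted p = 0.284).

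**Figure D4:**
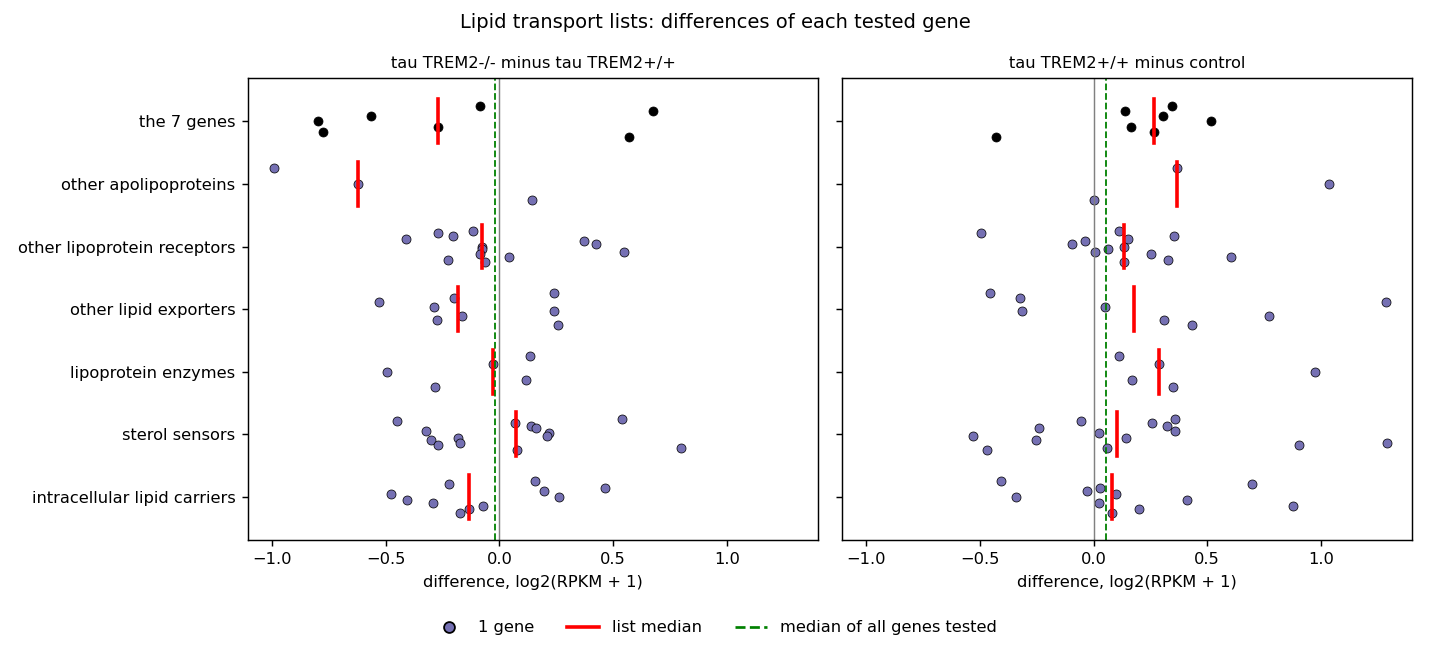
Differences in log2(RPKM + 1) (horizontal axes) of each tested gene in 6 lists of lipid transport genes and of the 7 genes themselves, for knockouts against P301S+ TREM2+/+ mice (left) and P301S+ TREM2+/+ mice against controls (right), with list medians in red and the median of all 12015 genes as a dashed line. The 7 genes have medians of -0.27 and 0.27, and the 6 lists together -0.08 and 0.13, with no gene past the adjusted threshold.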

How the data were processed

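Per the labels' protocols, cortical RNA of 16 mice was extracted on RNeasy columns, and Lexogen QuantSeq 3' libraries were run on a HiSeq4000. The submitters' processing notes name the tools STAR, HTSeq, edgeR and limma and the build mm10, with no version or role. The deposited files name no unit. The deposited values are RPKM by arithmetic: with whole gene lengths and library totals, 100.0% of deposited RPKM values came out as whole reads (tolerance 0.001 reads or a relative 3e-07) for all 18911 genes above 0. Dividing by gene length does not suit 3' reads, so levels of different genes compare poorly. In each file 1 blank line was dropped, and 2 symbols had repeated entries. The use of strand in counting is not given in the sources read.

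Differences were tested with limma's moderated linear model with an intensity trend (version 3.58.1, under R 4.3.3), applied to log2(RPKM + 1) of 12015 genes whose mean reached 1 RPKM. One model held 4 genotypes and sex over 16 libraries, with Benjamini-Hochberg adjustment over all genes and a threshold of 0.05. Sex differences were interactions. Tested on simulated data, the script recovered most planted changes. Those data had the same spread for all genes, no outlying library and no sex difference, so the recovery does not measure the power in these libraries. Genotype came from the sample descriptions, and replicates were numbered in accession order. The labels do not say that the samples were prepared independently, so p-values measure the spread between these samples. No pair of libraries within a genotype agreed within sampling noise (lowest mean chi-square per gene 6.87).

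Named genes are the 7 genes and Trem2, the 2 genes of smallest p per list for the P301S effect and for complete loss, any list gene past the threshold, and the 3 genes most correlated with each of the 7. Genes and lists were chosen with earlier results of these data known, and some list genes are not reported here and were left out of their lists. Alternatives were the pseudocount, the filter, TMM scaling, limma-voom, array weights, no sex term, only the genotypes compared, and each library left out. Array weights with TMM together, and the joint removal of 3 libraries, were added after seeing the data.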

Additional observations from a re-analysis of the deposited data

Results flagged for a closer look

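In 5 of 28 groups of 4 libraries (7 genes in 4 genotypes) the highest library stood apart from the rest by more than Dixon's 95% critical value, which chance exceeds in about 1 of 20 groups. In 4 of the 5 it was control replicate 3, so that these are not independent of each other. Its Apoe was 1145 RPKM, and the next control had 599 RPKM. Its Clu was 363 RPKM against 229 RPKM, its Apod 125 RPKM against 63.1 RPKM and its Abca1 4.64 RPKM against 3.07 RPKM in the next control. In P301S+ TREM2+/+ mice, Apod was 148 RPKM in replicate 3, a male, and 79.3 RPKM in the next library.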

How the results depend on the processing

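No paired analysis was possible because the labels give no litter, batch or preparation day by which mice could be paired. No member passed the threshold between genotypes with another pseudocount, no filter, TMM scaling, limma-voom, no sex term, only the genotypes compared or any one library left out. With array weights, alone or with TMM scaling, 1 passed for complete loss (Apoe, -0.92 and -0.88) and 1 for heterozygotes against controls (Abca1, 1.12 and 1.08). 1 passed the sex difference in partial loss with both (Clu, -1.05).

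The counts over all genes moved more. Array weights, alone and with TMM scaling, called 197 and 151 genes for the P301S effect, 690 and 649 for complete loss, 5 and 5 for complete against partial loss, 131 and 118 for heterozygotes against controls and 4 and 1 for knockouts against controls. For the sex differences they called 0 and 0 in the P301S effect, 444 and 472 in complete loss and 273 and 429 in partial loss. Without a filter 0 passed for complete loss and 3 for the sex difference in partial loss. Limma-voom called 0 for complete loss, 1 for heterozygotes and 1 for knockouts against controls, and 0 for the sex difference in the P301S effect. With only the genotypes compared, 7 passed for complete loss and 1 for complete against partial loss. Without control replicate 3 and both P301S+ TREM2+/+ females the counts were 0 for complete loss, 39 for complete against partial loss, 5 for heterozygotes and 1 for knockouts against controls. The cause of these shifts was not tested.

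With 1 library left out, 0 to 5 genes passed for the P301S effect, 0 to 13 for complete loss, 0 to 2 for complete against partial loss, 0 to 3 for heterozygotes and 0 to 1 for knockouts against controls, and the upper count of each came without control replicate 3. For the sex differences 1 to 5011 genes and 0 to 3 members passed in the P301S effect, 0 to 566 genes in complete loss, 0 to 383 genes and 0 to 1 members in partial loss, and 0 to 1 genes in complete against partial loss.

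Between genotypes, signs turned only for differences that passed no test. Without control replicate 3 and both P301S+ TREM2+/+ females, Clu turned to -0.0543 (P301S effect), 0.189 (complete loss) and 0.135 (knockouts against controls), Apoe to 0.297 (partial loss) and 0.0569 (knockouts against controls), and in partial loss Abcg1 to -0.0116 and Lcat to 0.015. For knockouts against controls Apod turned to 0.0688 and Lrp1 to -0.032 there. With array weights, alone and with TMM scaling, Abcg1 turned to -0.43 and -0.47 (P301S effect), Clu to -0.00487 and -0.000437 (partial loss), and for knockouts against controls Clu to 0.0837 and 0.0661, Apod to 0.0384 and 0.0187 and Lrp1 to -0.0721 and -0.0886. Against controls in heterozygotes, Lrp1 turned to -0.0117 with both, and Lcat to -0.0335 with TMM scaling alone.

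Leaving out 1 library gave ranges across 0 in the P301S effect for Abcg1 (-0.35 to 0.45) and Apoc1 (-0.047 to 0.633), in complete loss for Abca1 (-0.158 to 0.0924), in partial loss for Apoe (-0.26 to 0.10), Clu (-0.11 to 0.25) and Apod (-0.11 to 0.31), and in complete against partial loss for Abcg1 (-0.00137 to 0.342) and Lrp1 (-0.21 to 0.0333). Against controls they crossed 0 for Lcat in heterozygotes (-0.14 to 0.20) and in knockouts for Apoe (-0.448 to 0.022), Clu (-0.248 to 0.0933) and Apod (-0.416 to 0.0725). Lcat had 4 to 70 reads per library. Reads without molecular identifiers need not be separate molecules, so their number may understate the counting error.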
